A study of Mus musculus with 8 samples.

Results

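The integrin and laminin chain genes were examined in the ventricles of mice that lack Med1 in the heart. They were chosen by symbol, with no measured value in the rule: Itga or Itgb followed by a number, Itgav, and Lama, Lamb or Lamc followed by 1 digit. Earlier results of these data were known when the genes and the lists of partner genes were chosen. The rule found 31 genes among 23205 symbols with a value in every library, made up of 20 integrin genes (12 alpha chains and 8 beta chains) and 11 laminin genes (5 alpha, 3 beta and 3 gamma chains). Each had 1 row in the table of expression values. RNA sequencing of polyadenylated RNA had been done on 8 ventricular samples. Of these, 4 came from Med1 cardiac knockout mice (labelled Med1cKO, genotype Med1KO) and 4 from mice labelled WT, which carry the floxed allele Med1fl/fl according to the design text. All 8 were C57BL/6 and at postnatal day 21. Neither the promoter that drove the deletion nor the number of animals behind a sample is stated in the labels, so p-values may measure a spread between samples that is partly technical.

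Integrins are cell-surface receptors made of 1 alpha and 1 beta chain, which hold a cell to the matrix outside it and link to actin inside it. Laminins are cross-shaped or T-shaped proteins of 1 alpha, 1 beta and 1 gamma chain, and they form the sheet of the basement membrane that wraps each heart muscle cell and each vessel. In striated muscle Lama2 with Lamc1 and a beta chain is the usual laminin, and Itga7 with Itgb1 is its main integrin receptor, beside dystroglycan. The comparison of Med1cKO with WT ventricles asks which of these chains differed with the loss of Med1, the Mediator subunit through which nuclear receptors contact the transcription machinery.

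Expression was given as FPKM, fragments per length of transcript and per sequenced total, so that levels of different genes can be set side by side. Med1 itself (chromosome 11, 98152155 to 98193293, mm10) had 7.80, 8.37, 7.89 and 9.15 FPKM in Med1cKO libraries 1 to 4, against 15.5, 16.1, 10.6 and 16.8 FPKM in WT libraries 1 to 4. The groups did not overlap, the Med1cKO mean was 56.3% of the WT mean, and an exact two-sided permutation test gave p = 0.0286, the smallest that 4 against 4 libraries allow. Changes are given as Med1cKO minus WT on the log2(FPKM + 1) scale, which understates the change of low genes. The summed FPKM were 481650 to 502549 per Med1cKO library and 507458 to 536146 per WT library. The median of the 11974 rows tested was 0.25 higher in Med1cKO on that log2 scale. For each integrin and laminin gene tested the change is therefore also given, and for partner genes where it alters the call, after rescaling every library by its median ratio to the others (factors 1.068 to 1.115 in Med1cKO and 0.885 to 0.919 in WT), which brought that median to 0.01. The summed level of 8 cardiomyocyte markers was 10977 to 15504 FPKM in Med1cKO and 30527 to 36379 FPKM in WT, and all 8 fell, as they did after rescaling. Leaving out Med1cKO library 4 left 7 of these 8 called lower, against 16.3% of all rows. Of 9 fibroblast markers 5 rose and none fell, against 44.9% and 16.4% of all rows, and 3 rose and none fell after rescaling, against 27% and 26.9%. Their sums were 1194 to 2027 FPKM in Med1cKO and 908 to 1230 FPKM in WT. Without Med1cKO library 4, which had the highest sum, 4 rose and 1 fell, against 43.7% and 16.3% of all rows. Of 9 mural cell markers 6 rose and 1 fell, or 4 and 1 after rescaling, and their sums were 2453 to 2851 FPKM in Med1cKO against 1102 to 1266 FPKM in WT. Of 9 endothelial markers 1 rose and 2 fell, or none and 4 after rescaling, with sums of 361 to 440 FPKM in Med1cKO and 348 to 436 FPKM in WT. No endothelial marker rose and 1 fell without Med1cKO library 4, against 43.7% and 16.3% of all rows. Med1cKO library 4 stood apart: its 6 mesothelial markers summed to 63.6 FPKM, against 2.96 to 10.5 FPKM in the other Med1cKO libraries, and its 5 adipocyte markers to 131 FPKM, against 0.290 to 11.7 FPKM in the others. Among WT libraries, number 3 had the highest sums of mesothelial, adipocyte and lymphocyte markers, 10.5, 17.7 and 22.7 FPKM, against 1.86 to 2.14, 0 and 1.59 to 3.06 FPKM in the other WT libraries. In whole tissue, fewer cells of a type and less RNA per cell cannot be told apart, and what part these marker differences have in the results that follow was not tested.

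Of the 31 genes, 22 had a mean of at least 1 FPKM over the 8 libraries and were tested with limma, with p-values adjusted over all 11974 rows. Higher levels in Med1cKO were called for 13 of the 22, against 44.9% of all rows tested, and lower levels for 3, against 16.4%. The median change was 0.52 over the 22 genes and 0.25 over all rows. After rescaling, 9 were called higher, against 27% of all rows, and 4 lower, against 26.9%. Called in both ways of scaling were 9 increases, among them those of Itga3, Itga5, Itga11, Itgav, Itgb1, Itgb5, Lama2 and Lamc1, and 3 decreases, of Itga6, Itgb6 and Lamb3. The share of all rows called in both ways was not counted, so these numbers only list the genes. All 4 Med1cKO libraries lay above all 4 WT libraries for 13 of the 22, against 41.7% of all rows, and below them for 2, against 15.3%. After rescaling these numbers were 8, against 25.8%, and 4, against 25.7%. Without Med1cKO library 4, 12 were called higher, against 43.7% of all rows, and 2 lower, against 16.3%. A fit without a minimum took in all 31 genes and called 13 higher, against 22.4% of 23534 rows, and 2 lower, against 8.38%. Itga11 and Itgb3 passed the minimum only through their Med1cKO mean and Itgb6 only through its WT mean, so these counts describe the genes that passed and not the 31.

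**Figure D1:**
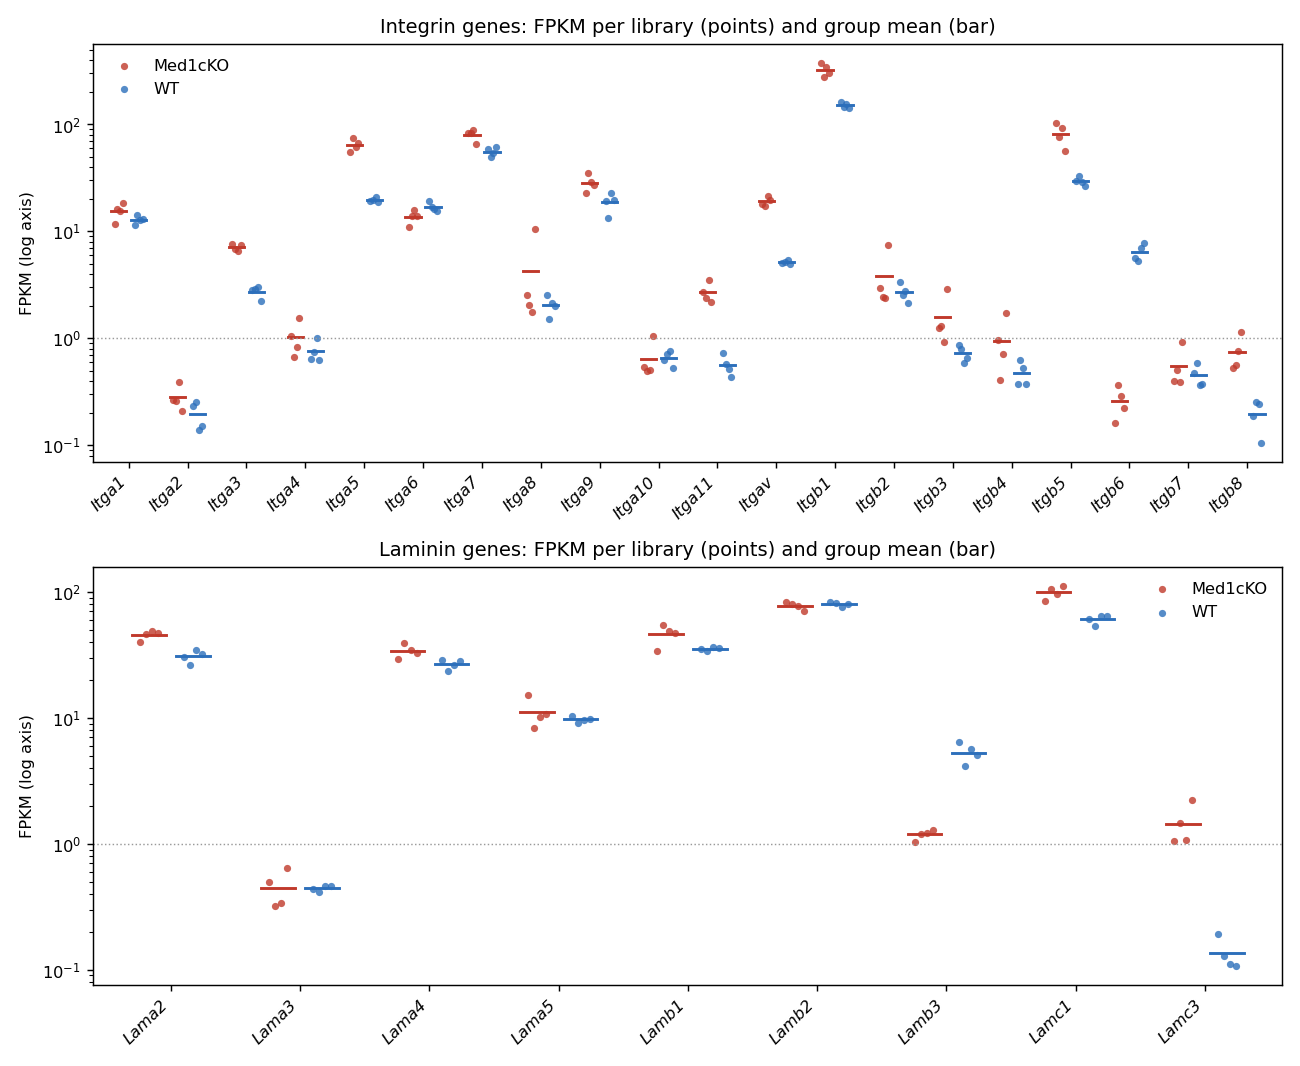
FPKM of integrin and laminin genes in every library, on a log axis, with Med1cKO libraries beside WT libraries. The separated genes include Itgav, at 17.3 to 21.6 FPKM in Med1cKO and 4.95 to 5.36 FPKM in WT, and Itgb6, at 0.163 to 0.366 FPKM in Med1cKO and 5.26 to 7.79 FPKM in WT.

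Among the beta chains, Itgb1 and Itgb5 were higher in Med1cKO ventricles and Itgb6 was lower. Itgb1, the chain that most matrix-binding alpha chains pair with, lies on chromosome 8 at 128685654 to 128733579. It had 376, 278, 347 and 302 FPKM in Med1cKO libraries, against 161, 146, 157 and 143 FPKM in WT libraries. Every Med1cKO library was above every WT library, by 2.15 times on the means, with a log2 change of 1.09 ± 0.10 (SE, adjusted p = 2.41e-05) and of 0.81 after rescaling (adjusted p = 0.000109). Itgb5, which pairs with Itgav as a vitronectin receptor, had 104, 75.6, 92.4 and 57.0 FPKM in Med1cKO libraries, against 29.8, 33.1, 28.9 and 26.8 FPKM in WT libraries. Its lowest Med1cKO library, number 4, was still above all WT libraries. The change was 1.41 ± 0.17 (SE, adjusted p = 9.06e-05) and 1.14 after rescaling (adjusted p = 0.00039).

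Itgb6 (chromosome 2, 60598292 to 60722603) codes for the partner of Itgav in an integrin best known from epithelia, where it binds and activates latent TGF-beta. It had 0.163, 0.366, 0.290 and 0.222 FPKM in Med1cKO libraries, against 5.65, 5.26, 7.02 and 7.79 FPKM in WT libraries. The groups were far apart, and the Med1cKO mean was 24.7 times lower. Its log2 change was -2.55 ± 0.13 (SE, adjusted p = 1.1e-06), or -2.70 after rescaling (adjusted p = 1.09e-06), opposite in sign to those of Itgb1 and Itgb5.

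Sequences upstream of the start sites are shown for Itgb6, which has a pair of annotated starts, and for Itgb1 and Itgav, genes of its receptor family that moved the other way. They are the 250 bases before each start in RefSeq (GRCm38.p6), printed 5′ to 3′ on the gene's strand, with motif matches in capitals. The inner Itgb6 window lies at chr2:60673694-60673943 on the minus strand, the outer one at chr2:60722604-60722853 on the minus strand, the Itgb1 window at chr8:128685404-128685653 on the plus strand and the Itgav window at chr2:83724147-83724396 on the plus strand.
Itgb6 inner: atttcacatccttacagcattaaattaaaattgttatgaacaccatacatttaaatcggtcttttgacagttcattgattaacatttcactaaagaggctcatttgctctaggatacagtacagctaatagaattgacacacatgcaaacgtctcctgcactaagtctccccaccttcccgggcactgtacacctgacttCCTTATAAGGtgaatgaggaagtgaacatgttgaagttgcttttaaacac
Itgb6 outer: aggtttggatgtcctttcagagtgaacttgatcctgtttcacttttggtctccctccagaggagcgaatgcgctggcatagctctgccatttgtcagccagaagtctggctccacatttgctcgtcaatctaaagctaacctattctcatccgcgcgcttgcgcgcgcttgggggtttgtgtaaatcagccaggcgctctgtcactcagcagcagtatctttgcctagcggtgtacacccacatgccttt
Itgb1: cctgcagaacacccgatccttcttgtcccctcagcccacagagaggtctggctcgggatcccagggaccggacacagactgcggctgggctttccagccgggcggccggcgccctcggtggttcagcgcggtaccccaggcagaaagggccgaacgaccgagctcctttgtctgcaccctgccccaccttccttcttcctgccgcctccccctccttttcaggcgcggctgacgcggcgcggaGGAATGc
Itgav: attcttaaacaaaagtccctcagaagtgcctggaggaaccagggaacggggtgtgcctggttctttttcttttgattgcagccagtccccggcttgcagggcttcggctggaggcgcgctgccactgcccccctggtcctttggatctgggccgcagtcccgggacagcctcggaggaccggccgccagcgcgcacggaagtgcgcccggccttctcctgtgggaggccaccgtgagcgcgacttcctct

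The inner Itgb6 window was AT-rich, with 38.0% G and C and 3 CpG dinucleotides, and held a CArG box, the site that serum response factor reads, 50 bases before the start. The outer Itgb6 window had 52.0% G and C and 11 CpG. The Itgb1 and Itgav windows had 68.0% and 64.4% G and C and 21 and 18 CpG, against medians of 52.4% and 6 over all 32851 windows. GGAATG, a TEAD-type motif, stood 7 bases before the Itgb1 start. RefSeq windows were found for 20 of the 31 genes, 23 windows in all. On either strand, a CArG box was in windows of 2 genes and in 1.47% of all windows. GGAATG was in windows of 3 genes and in 12.6% of all. The AP-1 motif TGANTCA was in none of the 23 windows and in 6.75% of all, and the nuclear receptor half-site AGGTCA was in none of the 23 and in 14% of all. These motifs were searched without regard to overlap with one another, and a match is a description of letters, not of a bound site. The expression tables give 1 value per gene, so which Itgb6 start was used is not known.

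The other beta chains were low. Itgb3, the platelet and vascular partner of Itgav, had 1.25, 1.31, 0.916 and 2.91 FPKM in Med1cKO libraries, against 0.876, 0.802, 0.592 and 0.649 FPKM in WT libraries. These values did not overlap, but the change of 0.53 did not pass (adjusted p = 0.0527, and 0.134 after rescaling). The change was 0.32 without Med1cKO library 4 (adjusted p = 0.0651), and it was 0.66 and passed without Med1cKO library 3 (adjusted p = 0.0269). Itgb8, which also pairs with Itgav and binds latent TGF-beta, had 0.528, 0.566, 0.764 and 1.15 FPKM in Med1cKO libraries, against 0.190, 0.252, 0.242 and 0.106 FPKM in WT libraries. It was below the minimum. In the fit without a minimum its change was 0.54 ± 0.11 (SE, adjusted p = 0.011), and 0.46 after rescaling (adjusted p = 0.0195). Itgb2, the leukocyte chain, had 2.38 to 2.95 FPKM in Med1cKO libraries 1 to 3 and 7.52 FPKM in Med1cKO library 4, against 2.13 to 3.33 FPKM in WT. Its change was 0.28 with all libraries (adjusted p = 0.406), 0.07 after rescaling and -0.03 without Med1cKO library 4. Itgb4, the epithelial hemidesmosome chain, had 0.408 to 1.71 FPKM in Med1cKO and 0.372 to 0.623 FPKM in WT, and Itgb7, a lymphocyte chain, 0.387 to 0.923 FPKM in Med1cKO and 0.367 to 0.589 FPKM in WT.

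Among the alpha chains tested, Itga5 and Itgav had the largest changes on the log2(FPKM + 1) scale. Both bind the RGD sequence of fibronectin and vitronectin. This order depends on the pseudocount. With 0.1 in place of 1, the change of the low gene Itga11 was 2.08, against 1.87 for Itgav and 1.71 for Itga5. Itga11 also had the larger ratio of means, 4.81 times. Itga5, the fibronectin receptor chain (chromosome 15, 103344286 to 103366748), had 55.5, 75.5, 61.6 and 66.8 FPKM in Med1cKO libraries, against 19.4, 19.7, 21.1 and 18.6 FPKM in WT libraries. All Med1cKO libraries were above all WT libraries, 3.29 times on the means, with a change of 1.66 ± 0.10 (SE, adjusted p = 1.98e-06) and 1.39 after rescaling (adjusted p = 7.79e-06). Itgav, which pairs with several beta chains (chromosome 2, 83724397 to 83806916), had 18.1, 17.3, 21.6 and 19.6 FPKM in Med1cKO libraries, against 5.06, 5.15, 5.36 and 4.95 FPKM in WT libraries. Both groups were tight and wide apart, 3.73 times on the means, and the change was 1.71 ± 0.08 (SE, adjusted p = 8.1e-07), or 1.46 after rescaling (adjusted p = 1.32e-06). Itga8, a receptor chain for nephronectin, had 2.54, 2.06, 1.75 and 10.6 FPKM in Med1cKO libraries, against 1.51 to 2.57 FPKM in WT libraries. Apart from Med1cKO library 4 the groups shared their range, and the change was 0.51 with all libraries (adjusted p = 0.302), 0.31 after rescaling and 0.03 without that library.

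The 3 laminin-binding alpha chains moved differently from one another. Itga7, the muscle laminin receptor, was the most abundant alpha chain on the means of both groups. Its libraries had 83.0, 83.9, 88.9 and 65.0 FPKM in Med1cKO, against 58.8, 50.0, 53.5 and 61.0 FPKM in WT. In Med1cKO library 4 Itga5 was slightly higher than Itga7, at 66.8 FPKM. Itga7 rose by 0.51 ± 0.11 (SE, adjusted p = 0.00303) with no overlap, but the rescaled change of 0.23 missed the threshold (adjusted p = 0.122). Itga3 had 7.68, 6.86, 6.51 and 7.40 FPKM in Med1cKO libraries, against 2.84, 2.87, 3.02 and 2.22 FPKM in WT libraries. This chain, known for binding laminins with the Lama3 or Lama5 chain, rose by 1.12 ± 0.10 (SE, adjusted p = 1.44e-05) and by 0.90 after rescaling (adjusted p = 4.51e-05). Itga6, a chain of vessels and epithelia, had 11.1, 14.02, 15.8 and 14.003 FPKM in Med1cKO libraries, against 19.2, 17.04, 16.2 and 15.6 FPKM in WT libraries. The highest Med1cKO library was above the lowest WT library, and the change of -0.30 ± 0.11 (SE) was just past the threshold (adjusted p = 0.0413). After rescaling it was -0.56 (adjusted p = 0.00213) and the groups did not overlap. As deposited, the call was lost on leaving out Med1cKO library 1, 2 or 4 or WT library 1, 2 or 3, one at a time, with changes of -0.32 to -0.20 and adjusted p of 0.0585 to 0.112.

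Of the collagen-binding alpha chains, Itga11 rose. Itga11, a fibrillar collagen receptor chain of fibroblasts (chromosome 9, 62677855 to 62783979), had 2.72, 2.40, 3.55 and 2.20 FPKM in Med1cKO libraries, against 0.731, 0.572, 0.519 and 0.438 FPKM in WT libraries. The groups were clear of one another, 4.81 times apart on the means, with a change of 1.24 ± 0.14 (SE, adjusted p = 6.29e-05) and 1.09 after rescaling (adjusted p = 0.000152). Itga1, which binds type IV collagen, had 11.8, 16.3, 15.5 and 18.4 FPKM in Med1cKO libraries, against 11.6, 14.2, 12.8 and 13.1 FPKM in WT libraries. Its change was 0.23 (adjusted p = 0.136) and turned to -0.03 after rescaling, while leaving out Med1cKO library 1 gave 0.35 and a call (adjusted p = 0.0106). The gene Pelo lies inside Itga1 and had 12.5 FPKM in Med1cKO and 8.36 FPKM in WT. Whether counting used strand is not given in the sources used here, so reads of the pair may not be separated. Itga2, a collagen receptor chain of platelets and epithelia, had 0.208 to 0.387 FPKM in Med1cKO and 0.140 to 0.255 FPKM in WT, and Itga10, the chondrocyte collagen receptor chain, 0.494 to 1.05 FPKM in Med1cKO and 0.532 to 0.754 FPKM in WT. Neither passed the minimum.

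Itga9, a receptor chain for tenascin-C and osteopontin, had 22.8, 34.9, 29.2 and 27.4 FPKM in Med1cKO libraries, against 19.2, 13.4, 22.6 and 19.7 FPKM in WT libraries. The lowest Med1cKO library was barely above the highest WT library. The change of 0.59 ± 0.17 (SE) passed as deposited (adjusted p = 0.0125), and the rescaled change of 0.32 did not (adjusted p = 0.15). Itga4, which shares ligands with Itga9 and is best known from leukocytes, had 0.669 to 1.54 FPKM in Med1cKO and 0.625 to 1.01 FPKM in WT and was below the minimum. Of the 6 integrin alpha genes whose symbols end in a letter, Itgal and Itgam, leukocyte chains that pair with Itgb2, passed the minimum and neither passed the test. Itgam averaged 3.97 ± 4.12 FPKM in Med1cKO and 1.82 ± 0.156 FPKM in WT (SD, n = 4 each), with a change of 0.52 that was 0.04 without Med1cKO library 4. Of 11 measured macrophage markers none was called as deposited, against 44.9% of all rows called higher and 16.4% lower. After rescaling none rose and 3 fell, against 27% and 26.9%. Their sums were 205 to 392.4 FPKM in Med1cKO and 276 to 416 FPKM in WT.

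**Figure D2:**
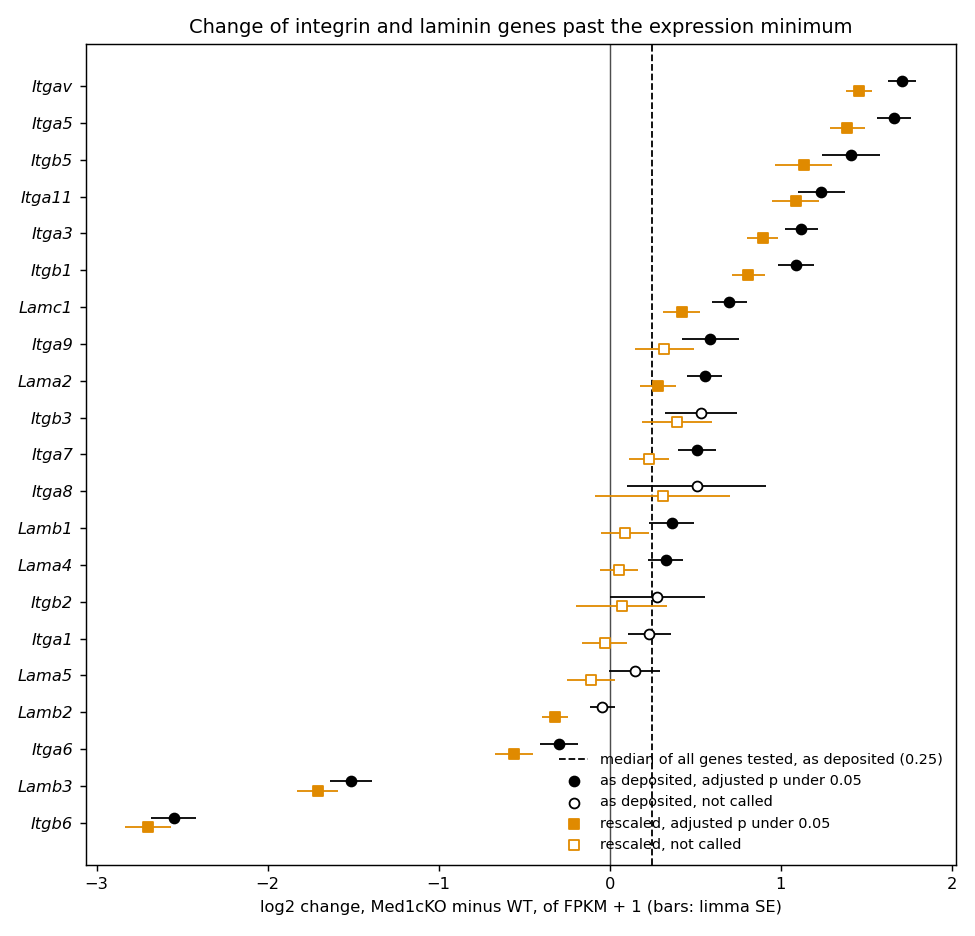
Log2 change (Med1cKO minus WT, log2(FPKM + 1) scale, bars are the SE) of 21 of the 22 tested genes, as deposited and after rescaling. Itgav at 1.71 and Itgb6 at -2.55 mark the ends, and rescaling moves every gene to the left.

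Among the laminin alpha chains the muscle form rose and the others moved less. Lama2 had 39.8, 46.0, 49.2 and 47.3 FPKM in Med1cKO libraries, against 30.4, 26.2, 34.5 and 31.9 FPKM in WT libraries. The groups did not overlap as deposited, and the change was 0.56 ± 0.10 (SE, adjusted p = 0.0011), or 0.28 after rescaling (adjusted p = 0.0448). The call of Lama2 was lost after quantile normalization (0.29, adjusted p = 0.0509) and after rescaling without a minimum (0.28, adjusted p = 0.0959). Lama4, the alpha chain of endothelial and fat cell basement membranes, had 29.2, 39.0, 34.3 and 33.0 FPKM in Med1cKO libraries, against 28.7, 23.7, 26.1 and 28.5 FPKM in WT libraries. Its change of 0.33 ± 0.10 (SE) passed as deposited (adjusted p = 0.0186), did not pass without WT library 2 (0.27, adjusted p = 0.0539), and was 0.06 after rescaling (adjusted p = 0.691). Lama5, a vascular and epithelial chain, had 15.2, 8.26, 10.1 and 10.7 FPKM in Med1cKO libraries, against 10.3, 9.14, 9.59 and 9.76 FPKM in WT libraries. Here the WT range lay inside the Med1cKO range, and the change was 0.15 (adjusted p = 0.422) and -0.11 after rescaling. Lama3, a chain of epithelia, averaged 0.449 ± 0.151 FPKM in Med1cKO and 0.443 ± 0.0233 FPKM in WT (SD, n = 4 each). Lama1, an embryonic chain, was listed at 0 in 6 libraries and at about 0.015 FPKM in the others.

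The beta chains differed in kind. Lamb2, the chain of mature muscle and synaptic basement membranes and the most abundant laminin beta chain, had 83.4, 80.2, 77.3 and 70.9 FPKM in Med1cKO libraries, against 82.5, 82.0, 75.8 and 80.9 FPKM in WT libraries. The groups shared their range as deposited (change -0.04, adjusted p = 0.618), whereas the rescaled change was -0.32 and passed (adjusted p = 0.00621). Lamb1 had 33.8, 54.8, 49.1 and 47.4 FPKM in Med1cKO libraries, against 35.1, 33.9, 36.4 and 35.6 FPKM in WT libraries. Its Med1cKO library 1 lay below all WT libraries and the other Med1cKO libraries above them. The change of 0.36 ± 0.13 (SE) passed with all libraries (adjusted p = 0.0384), not after rescaling (0.09, adjusted p = 0.618), and not on leaving out any 1 library other than Med1cKO library 1 (0.28 to 0.38, adjusted p of 0.0633 to 0.0946). Lamb3, a chain of the laminin of skin hemidesmosomes (chromosome 1, 193301994 to 193343878), had 1.03, 1.20, 1.23 and 1.28 FPKM in Med1cKO libraries, against 6.39, 4.12, 5.60 and 5.06 FPKM in WT libraries. It was 4.47 times lower on the means, without overlap, with a change of -1.51 ± 0.12 (SE, adjusted p = 1.03e-05) and -1.71 after rescaling (adjusted p = 5.7e-06).

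Of the gamma chains, Lamc1 and Lamc3 were higher in Med1cKO ventricles. Lamc1, the gamma chain of most laminins and the one that nidogen binds, had 84.9, 105, 96.9 and 111 FPKM in Med1cKO libraries, against 60.5, 53.3, 65.0 and 64.8 FPKM in WT libraries. Without overlap, its change was 0.70 ± 0.10 (SE, adjusted p = 0.000317) and 0.42 after rescaling (adjusted p = 0.00905). Lamc3, a gamma chain of few tissues, had 1.06, 1.45, 1.06 and 2.21 FPKM in Med1cKO libraries, against 0.193, 0.128, 0.110 and 0.108 FPKM in WT libraries. Lamc3 was below the minimum as a mean over all libraries. In the fit without a minimum its change was 1.08 ± 0.15 (SE, adjusted p = 0.00157), and 0.99 after rescaling (adjusted p = 0.00247).

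Summed over their genes, the alpha integrin chains came to 238 ± 16.3 FPKM in Med1cKO and 136 ± 6.83 FPKM in WT, and the beta integrin chains to 416 ± 59.8 FPKM in Med1cKO and 192 ± 8.92 FPKM in WT (SD, n = 4 each). Laminin alpha chains summed to 91.0 ± 4.26 FPKM in Med1cKO and 67.7 ± 5.48 FPKM in WT, and beta chains to 125 ± 8.32 FPKM in Med1cKO and 121 ± 2.58 FPKM in WT. Shares within a class do not depend on the scaling of libraries. Laminin-binding chains (Itga3, Itga6 and Itga7) made up 42.5% ± 4.46 of alpha integrin FPKM in Med1cKO and 55.4% ± 2.26 in WT. RGD-binding chains (Itga5, Itga8 and Itgav) made up 37.1% ± 3.14 in Med1cKO and 19.8% ± 1.15 in WT. By gene, the share of Itga7 was 33.8% ± 4.56 in Med1cKO and 40.9% ± 2.41 in WT, that of Itga6 5.75% ± 0.570 in Med1cKO and 12.5% ± 1.25 in WT, and that of Itga5 27.2% ± 2.24 in Med1cKO and 14.5% ± 1.05 in WT. None of these 3 gene shares overlapped between groups. Itgb1 held 78.4% ± 1.67 of beta integrin FPKM in Med1cKO and 78.9% ± 1.16 in WT, with overlapping libraries.

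**Figure D3:**
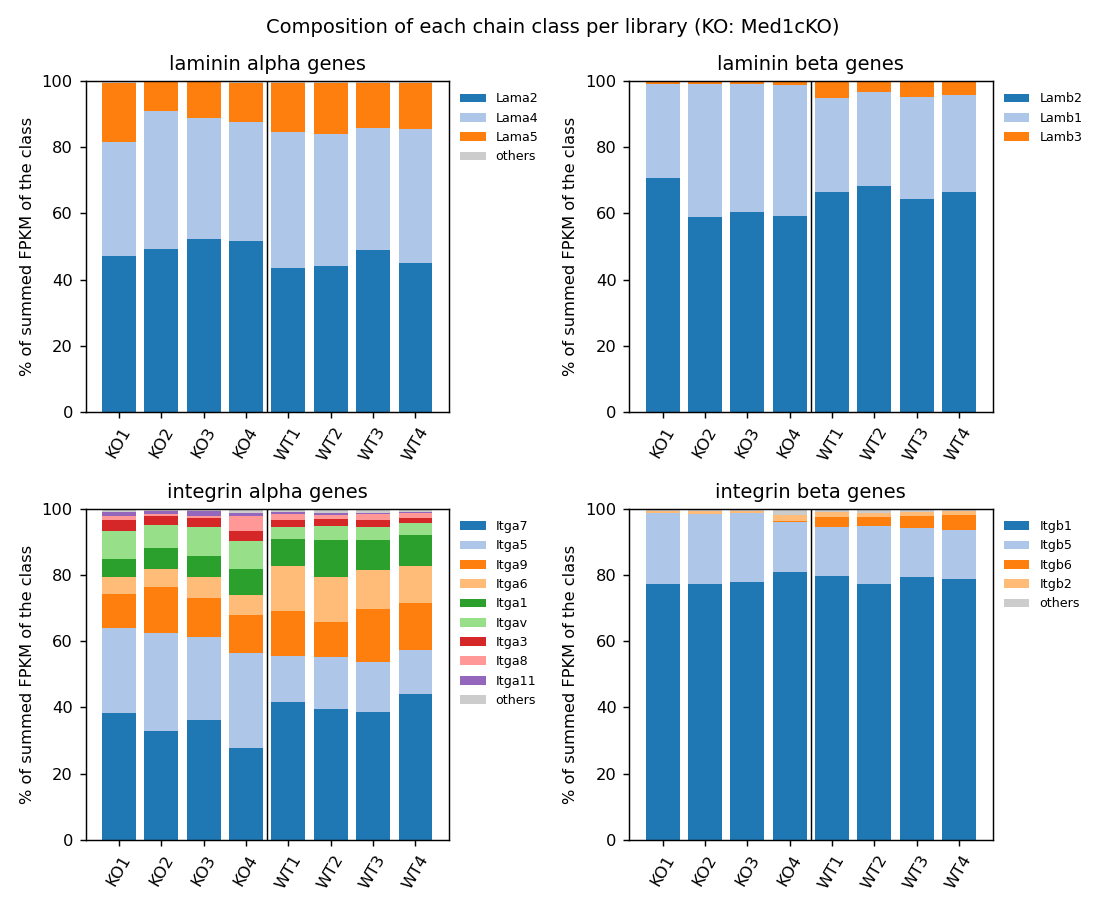
Share of each chain in the summed FPKM of its class, per library, for integrin alpha, integrin beta, laminin alpha and laminin beta genes, Med1cKO libraries first. Itga5 takes 25.04% to 29.6% of the alpha integrin FPKM in Med1cKO and 13.4% to 15.6% in WT, and Itgb1 keeps a similar share in both groups.

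Ratios between chains that take the same place in a molecule were compared for 8 pairs, by exact two-sided permutation tests on the log2 ratio with p adjusted over the 8. Itga6 to Itga7 was 0.173 ± 0.0338 in Med1cKO and 0.306 ± 0.0375 in WT (SD, n = 4 each), a log2 difference of -0.83 ± 0.17 (SE, exact p = 0.0286, adjusted 0.0762). Itga5 to Itga7 was 0.823 ± 0.171 in Med1cKO and 0.356 ± 0.0449 in WT, a difference of 1.19 ± 0.18 (SE, exact p = 0.0286, adjusted 0.0762). Itga3 to Itga7 differed by 0.87 ± 0.20 (SE, exact p = 0.0286, adjusted 0.0762). In these 3 the libraries of the groups did not overlap. The differences were -0.23 for Lama4 to Lama2 and 0.35 for Itgb5 to Itgb1 (exact p = 0.0571, adjusted 0.0914, for each), 0.42 for Lamb1 to Lamb2 (exact p = 0.143), -0.41 for Lama5 to Lama2 (exact p = 0.171) and -0.09 for Itgb3 to Itgb1 (exact p = 0.886). None of the 8 passed 0.05 after adjustment. No exact p can be under 0.0286 here, so no ratio can pass unless at least 5 of the 8 reach that floor. The adjusted values therefore do not decide about any 1 ratio. Without Med1cKO library 1, the lowest for Lamb1 and the highest for Lama5, 5 of the 8 reached the floor. These passed at an adjusted 0.0457, and they included Lamb1 to Lamb2 (0.59) and Lama5 to Lama2 (-0.64). No ratio passed on leaving out any other library, where the smallest adjusted p was 0.0762.

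Receptors were then set beside the molecules they bind, in lists chosen with earlier results of these data known. Counts over the lists of partner genes therefore only describe the genes listed. Itga5 with Itgb1 binds fibronectin, and Fn1 averaged 60.5 ± 22.5 FPKM in Med1cKO and 15.2 ± 1.85 FPKM in WT, a change of 1.87 (adjusted p = 6.32e-05). Of the 22 listed ligands of RGD-binding and related integrins, 19 passed the minimum, and 14 of these rose and 1 fell, against 44.9% and 16.4% of all rows. After rescaling 13 rose and 1 fell, against 27% and 26.9%. The median change was 1.93, against 0.25 over all rows. Fbn2, Npnt, Spp1 and Tnc passed the minimum only through their Med1cKO mean, so these counts and the median describe the genes that passed. Postn, periostin, which binds Itgav integrins, was 17.5 times higher at 507 ± 117 FPKM in Med1cKO and 29.0 ± 4.34 FPKM in WT. Thbs1, thrombospondin-1, was 15.8 times higher and Tgfb2, a TGF-beta isoform, 13.9 times. Ctgf, a matricellular protein, averaged 429 ± 92.8 FPKM in Med1cKO and 42.9 ± 18.2 FPKM in WT. Tnc, the ligand of Itga9, averaged 9.36 ± 6.36 FPKM in Med1cKO and 0.914 ± 0.324 FPKM in WT (change 2.22, adjusted p = 0.00122). The decrease was of Vtn, vitronectin, the ligand that Itgav with Itgb5 is named for, at 6.32 ± 1.23 FPKM in Med1cKO and 19.1 ± 0.761 FPKM in WT (change -1.48, adjusted p = 1.05e-05). Tgfb1, whose latent form Itgav with Itgb6 binds, had a change of 0.43 (adjusted p = 0.00609) that did not pass after rescaling (0.18, adjusted p = 0.19). Npnt, the Itga8 ligand, did not pass (change 0.49, adjusted p = 0.351).

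Of the 10 collagen genes listed as ligands of Itga1, Itga2, Itga10 and Itga11, 9 rose and none fell, in both ways of scaling, with a median change of 1.12. Of all rows, 44.9% rose as deposited and 27% after rescaling. Col5a2 was 5.69 times higher, Col1a1 4.38 times, Col1a2 4.02 times and Col5a1 2.41 times. Col1a1 and Col1a2 are also among the fibroblast markers whose sum is given above. Among 7 measured cell-surface ligands, 3 rose and 1 fell, or 2 and 2 after rescaling, with a median change of -0.04. These counts are near those of all rows, of which 44.9% rose and 16.4% fell, or 27% and 26.9% after rescaling. F11r, a junction protein that binds Itgal integrins, was 2.13 times higher and Icam1, a leukocyte ligand, 2.11 times. Vcam1, the ligand of Itga4 and Itga9, had 12.4 ± 8.31 FPKM in Med1cKO and 5.86 ± 0.364 FPKM in WT, with a change of 0.80 (adjusted p = 0.0458). Its change was 0.43 without Med1cKO library 4 (adjusted p = 0.00152), and the call was lost without any 1 WT library (adjusted p of 0.0779 to 0.0915) and after rescaling (0.55, adjusted p = 0.15). Jam2, a junction protein of vessels, fell by 0.63 on the log2 scale.

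On the laminin side, 12 of 17 other basement membrane genes rose and none fell, with a median change of 0.97, and 10 rose and 1 fell after rescaling. Of all rows, 44.9% rose and 16.4% fell as deposited, and 27% and 26.9% after rescaling. The median change of these basement membrane genes was 0.65 without Med1cKO library 4. In that setting 12 rose and none fell, against 43.7% and 16.3% of all rows. Col4a6 passed the minimum only through its Med1cKO mean. The collagen IV chains Col4a1 and Col4a2 averaged 363 ± 61.9 and 265 ± 35.0 FPKM in Med1cKO, against 165 ± 1.54 and 120 ± 2.42 FPKM in WT, and Col4a5 was 3.17 times higher. Smoc1, a calcium-binding matrix protein, was 6.64 times higher and Sparc, a collagen-binding matrix protein, 2.66 times. Hspg2, perlecan, averaged 103 ± 5.33 FPKM in Med1cKO and 66.7 ± 6.07 FPKM in WT (change 0.63, adjusted p = 0.000152). Nid1, the nidogen that joins Lamc1 to collagen IV, had a change of 0.51 (adjusted p = 0.00492), which did not pass after rescaling (0.24, adjusted p = 0.1).

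Laminin receptors other than integrins rose in 6 of 8 cases and none fell, in both ways of scaling, against 44.9% and 16.4% of all rows as deposited and 27% and 26.9% after rescaling. The median change was 0.77. Dag1, dystroglycan, averaged 96.6 ± 10.3 FPKM in Med1cKO and 92.3 ± 5.47 FPKM in WT (change 0.06, adjusted p = 0.579). Rpsa, the other gene without a call, was at 374 ± 39.1 FPKM in Med1cKO and 374 ± 51.7 FPKM in WT. Bcam, a receptor for laminins with Lama5, rose by 0.69 (adjusted p = 0.00016). Cd44, a hyaluronan receptor, was 4.21 times higher, and the syndecans Sdc4 and Sdc1 2.44 and 2.23 times. Lgals3, a lectin of macrophages, was 9.36 times higher with all libraries, and its change of 2.17 was 1.58 without Med1cKO library 4 (adjusted p = 0.0134). Of 11 measured genes that modify laminin receptors or cleave the matrix, 5 rose and 2 fell, or 4 and 4 after rescaling, which as deposited is close to the 44.9% and 16.4% of all rows. Large, the enzyme that extends the laminin-binding glycan of dystroglycan, was 2.72 times higher and Pomgnt1, an earlier enzyme of that glycan, 1.84 times. Pomt1, also of that glycan's synthesis, fell by 0.39 on the log2 scale. The matrix proteases Adamts1 and Mmp14 were 2.48 and 2.45 times higher.

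**Figure D4:**
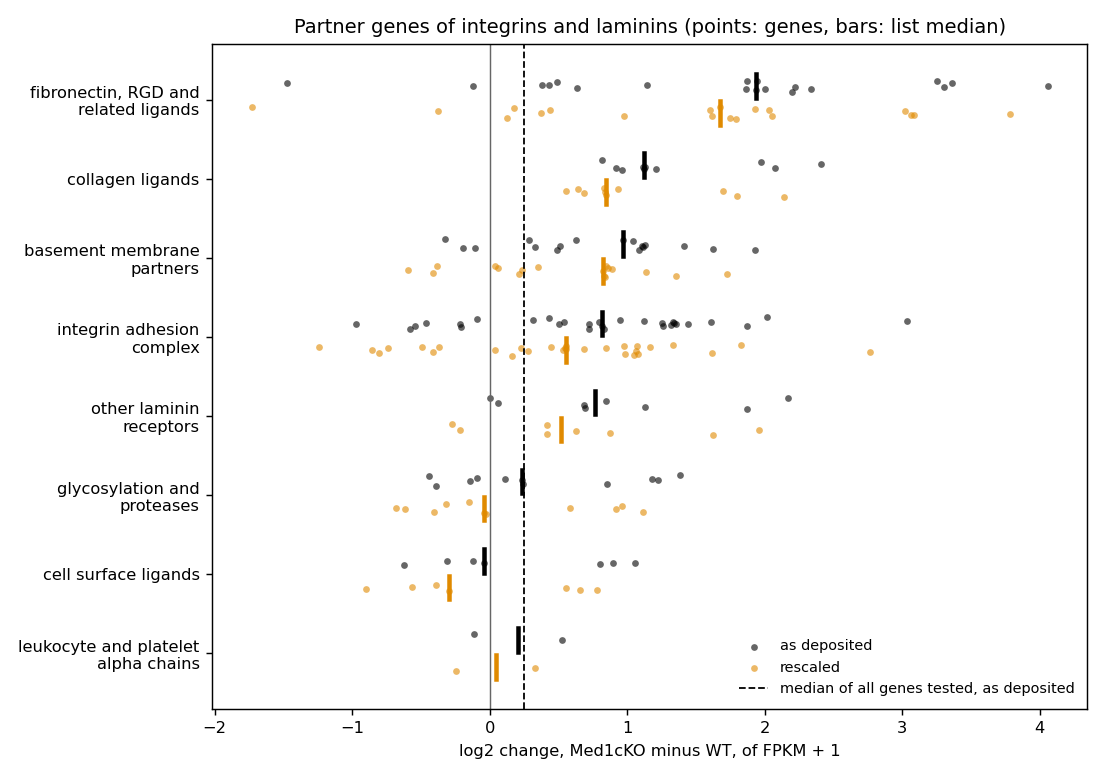
Log2 change (Med1cKO minus WT, log2(FPKM + 1) scale) of the measured genes in each list of integrin and laminin partners, with 1 point per gene and the list median. The median is 1.93 for ligands of RGD-binding and related integrins, 1.12 for collagens and -0.04 for cell-surface ligands, against 0.25 for all rows tested.

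Inside the cell, 22 of 29 measured genes of integrin adhesion complexes rose and 4 fell, with a median change of 0.81, and 20 rose and 6 fell after rescaling. The shares of all rows were 44.9% higher and 16.4% lower, or 27% and 26.9% after rescaling. Actn1, a non-muscle alpha-actinin, was 8.97 times higher, Ptk2b, a kinase related to focal adhesion kinase, 7.22 times, Tgfb1i1, a paxillin relative, 4.18 times and Zyx, zyxin, 3.09 times. Ilk, the integrin-linked kinase, averaged 157 ± 5.26 FPKM in Med1cKO and 60.7 ± 2.70 FPKM in WT, and its partner Parva 54.3 ± 3.46 FPKM in Med1cKO and 19.4 ± 1.02 FPKM in WT. Talin genes, whose products bind and activate the beta chains, went opposite ways. Tln1 averaged 63.9 ± 4.49 FPKM in Med1cKO and 25.03 ± 2.35 FPKM in WT (change 1.32, adjusted p = 3.85e-06). Tln2, the muscle-enriched talin, averaged 8.35 ± 1.49 FPKM in Med1cKO and 12.6 ± 1.12 FPKM in WT (change -0.55, adjusted p = 0.00289). The adaptor gene Lims1 (-0.46) and the tensin gene Tns1 (-0.58) were also lower. Itgb1bp2, melusin, the muscle protein that binds the tail of Itgb1, averaged 194 ± 25.7 FPKM in Med1cKO and 224 ± 22.2 FPKM in WT. Its change of -0.22 did not pass (adjusted p = 0.118), but passed after rescaling (-0.49, adjusted p = 0.0064) and without Med1cKO library 3 (-0.29, adjusted p = 0.0412).

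The authors' deposited table of their own comparison, which gives FPKM per group, tested 25 of the 31 genes. It marked 12 as higher and 3 as lower in Med1cKO. The share of all genes marked in the authors' comparison was not counted, so these counts are not set against a background. The 3 lower ones in the authors' deposited table were Itga6, Itgb6 and Lamb3. In that deposited table by the authors, Itgb6 had group values of 0.278 FPKM in Med1cKO and 8.28 FPKM in WT. The group FPKM of the authors' deposited table were 1.06 times the mean of the Med1cKO libraries and 1.29 times that of the WT libraries at the median of 11802 genes. The median log2 ratio of Med1cKO to WT in the authors' deposited table was 0.01. Of the genes tested, 4 called higher in the library FPKM as deposited, Itga7, Lama2, Lama4 and Lamb1, were not marked in the authors' deposited table, with q-values of 0.139, 0.102, 0.742 and 0.539. In the other direction, Itga8, Itgb3 and Lamc3 were marked higher in the authors' deposited table, with q-values of 0.000763, 0.0115 and 0.000211, and were not called or not tested in the library FPKM with the minimum.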

How the data were processed

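Libraries of polyadenylated RNA were stranded and sequenced, and reads were aligned to mm10 with TopHat (version 1.0.0), assembled with Cufflinks and compared with Cuffdiff, according to the design text and the submitters' processing notes. One deposited table, made by the authors, holds FPKM for each gene in each library in 23847 rows, of which 313 lacked a number in some library and were left out. Listed values of 0.001 FPKM, which stand for 0, were set to 0. A second table, deposited by the authors, holds a value for each group, p-values and q-values, per the file headers. These group values were taken as FPKM. FPKM divides by transcript length and library size, so a gene's FPKM falls where others take more of the total, and fragment counts and depth per library are unknown.

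Groups and replicate numbers came from sample titles. The test was limma 3.58.1 in R 4.3.3 (lmFit, eBayes with trend) on log2(FPKM + 1), for rows that averaged 1 FPKM or more across the 8 libraries, two-sided, with Benjamini-Hochberg adjusted p under 0.05 called. Rescaled values were divided by median-of-ratios factors. Ratios were tested by exact permutation. Replicate numbers did not pair libraries. Alternatives were a pseudocount of 0.1, no minimum, a minimum of 5 FPKM, rescaling, quantile normalization, limma without trend, robust moderation, a replicate block and leaving out each library. The fit was tested on simulated data. By rule, the partner genes named were the 4 called genes of each list with the largest log2 change, or the 2 of highest mean where none was called, and the other partners named, among them Fn1, Vtn, Tnc, Npnt, Tln1, Tln2, Ilk, Parva, Dag1, Rpsa, Bcam, Tgfb1, Hspg2, Nid1, Col4a1, Itgb1bp2 and those that fell, were chosen after their values were seen. A few genes of the rule or the lists are not reported here. Genes and lists were chosen with earlier results of these data known. Sequences came from RefSeq promoter tables (GRCm38.p6). Figures were drawn with matplotlib 3.10.9.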

Additional observations from a re-analysis of the deposited data

Results flagged for a closer look

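Groups of 4 values were examined for Med1 and for each integrin and laminin gene, in each genotype. Lama1, with values of 0 in both genotypes, was left out. Of the 62 groups, 3 held a library far from the others of its group, all in Med1cKO library 4. Chance gives such a library in about 1 group in 20. Itga8 had 10.6 FPKM there, against 1.75 to 2.54 FPKM in the other Med1cKO libraries. Itgb2 had 7.52 FPKM there, against 2.38 to 2.95 FPKM in the others. Itga10 had 1.05 FPKM there, against 0.494 to 0.538 FPKM in the others. The same library had the highest sums of mesothelial and adipocyte markers, 63.6 and 131 FPKM, and their part in these values was not tested.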

How the results depend on the processing

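Over all rows, 5371 were higher and 1964 lower as deposited, against 3236 and 3223 after rescaling, 3437 and 3067 after quantile normalization, and 3173 and 3149 after rescaling without a minimum, a setting chosen after seeing the data. Integrin genes called lower numbered 2, but 1 without a minimum and with a replicate block, where Itga6 lost its call. The number was also 1 with a minimum of 5 FPKM, where Itgb6 is not tested and Itga6 kept its call. It was 1 to 2 on leaving out each library. Laminin genes called higher numbered 5, but 3 after rescaling, 2 after quantile normalization, 3 after rescaling without a minimum and 3 to 5 on leaving out each library (3 without WT library 2). Laminin genes called lower numbered 1, but 0 with a minimum of 5 FPKM, where Lamb3 is not tested, and 2 after rescaling, after quantile normalization and after rescaling without a minimum. On leaving out each library, log2 ratio differences ranged from -0.94 to -0.71 for Itga6 to Itga7, 1.08 to 1.29 for Itga5 to Itga7, 0.73 to 0.96 for Itga3 to Itga7, 0.34 to 0.59 for Lamb1 to Lamb2 and -0.64 to -0.28 for Lama5 to Lama2. No call reversed its direction in any setting. Deviations of same-numbered libraries correlated at -0.041 to 0.14, so numbers do not pair libraries, and with a replicate block 5089 rows were higher and 1867 lower. The block lost the calls of Itga6 (adjusted p = 0.0894) and Lama4 (adjusted p = 0.0549). Of 367 gene results under all alternatives, 326 kept their call, 33 lost it and 8 gained one. The sign changed in 9 of the 326, all without a call, for Itga1, Itgb2, Lama5 and Lamb2. The cause was not tested where none is named. With depth unknown, genes under 1 FPKM are the least certain.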

Other observations

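Itgbl1, which codes for a secreted protein that resembles the stalk of an integrin beta chain and which the rule on symbols does not take in, was singled out after its values were seen. It had 57.9, 17.5, 33.8 and 33.0 FPKM in Med1cKO libraries, against 2.72, 3.34, 3.49 and 2.87 FPKM in WT libraries. The groups were far apart, 11.4 times on the means, and limma gave a change of 3.04 ± 0.29 on the log2 scale (SE, adjusted p = 2.4e-05), or 2.80 after rescaling (adjusted p = 3.79e-05). Its change was greater than that of any of the 22 integrin and laminin genes tested.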
